A study of Mus musculus with 14 samples.

Results

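Open chromatin was examined at 37 collagen chain genes in mouse neural stem cells carrying the ZFTA-RELA fusion, an oncogene of supratentorial ependymoma made of parts of ZFTA and of RELA, a transcription factor of the NF-kB pathway. The 37 genes were taken from a fixed list of collagen chains, and all 37 were found among the 21887 protein-coding genes of the mouse RefSeq table on chromosomes 1 to 19, X and Y. A peak belonged to a collagen locus where it touched the gene or lay within 20 kb of it. Merging the peaks of all 14 libraries gave 436 such regions out of 127850 in the genome.

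Accessibility was measured by ATAC-seq, which reads out where a transposase can cut and tag DNA, and the data were 1 deposited peak list per library. The 14 libraries formed 7 groups of 2. ZR was the fusion line and EV the line with the empty vector. ZR_GSK343 was the fusion line given 10 µM GSK343, an inhibitor of the histone methyltransferase EZH2, for 96 h. ZR_dmCitra was the fusion line given 10 mM citraconate, which the submitters describe as an antagonist of the itaconate-making enzyme ACOD1. ZR_DMSO was the vehicle control of both treatments. Citraconate_50K (10 mM citraconate) and DMSO_50K (vehicle) were a second library series. For citraconate the labels list 24 h and 48 h, and which group had which time is unknown.

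Several labels limit how the groups can be read. The ZR_DMSO libraries have DMSO in their titles and PBS as their vehicle, and the EV libraries carry a DMSO vehicle in replicate 1 and a PBS vehicle in replicate 2. Citraconate_50K is labelled as fusion cells and DMSO_50K as empty vector cells, so treatment and cell line cannot be told apart in that series. No label says that the libraries of a group came from separate cultures, and their spread may be technical. The labels used here do not say how the fusion was introduced or how many clones a line holds.

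Collagens are triple helices wound from chains that share a repeated glycine pattern. The fibrillar chains build the tension-bearing fibres of connective tissue, the network chains form sheets in basement membranes, fibril-associated chains decorate fibres, and transmembrane chains sit in the cell surface. In the brain, collagen is scarce outside the meninges, the vessel walls and the basement membranes, and type IV chains of the vascular basement membrane are its best known form there.

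The lists held 12554 to 60472 peaks, 544014 in all, and ZR_DMSO replicate 1 was the shortest. The ZR_DMSO peaks were narrow, at a median of 226 and 186 bp in a range of 186 to 533 bp over the 14 lists. The ZR_GSK343 lists were unequal, at 19513 and 57634 peaks. For each comparison, its 4 lists were therefore ranked by −log10 q and shortened to as many peaks as the shortest held. The labels state a sequencing depth of 40 to 45 M for the series. The lists hold no read counts, so the depth of each library is unknown. Of 12 neural stem markers, 9 had a peak within 1 kb of an end of the gene in the ZR and EV lists, and 5 of these had it in all 4 lists. The transcription factors Sox2, Sox1 and Hes5 and the intermediate filament Nes had it in both EV lists and neither ZR list, as did 1 endothelial marker (Kdr) and 1 microglial marker (P2ry12). That is 6 of the 17 markers with such a peak, and none was gained, against 6.92% lost and 3.09% gained of all protein-coding genes with such a peak. Of 10 fibroblast or perivascular markers 3 had such a peak in those 4 lists, as did 2 of 6 endothelial and 3 of 6 microglial markers. Their part in the collagen results was not tested.

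Of the 37 collagen genes, 36 had a peak in at least 1 list, and 13 had one in all 14. Col10a1, the network-forming chain of hypertrophic cartilage, had none in any list. Most collagen regions lay away from the gene ends. Of the 436 regions, 30 touched the 1 kb windows around a collagen gene's ends, 303 lay inside a gene, 82 lay in the flanks and 21 touched an end of a neighbouring gene. In all, 178 regions (40.8%) were in 1 list alone and 7 were in all 14. Regions at ends of neighbouring genes were in a median of 11 lists, those at collagen ends in 3, and those inside collagen genes in 2. The flank's outer band, 10 to 20 kb from a gene, held 53 regions in a median of 3 lists, and the next band, 20 to 30 kb away, 48 regions in a median of 3 lists, so the 20 kb limit marked no step in the data.

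**Figure D1:**
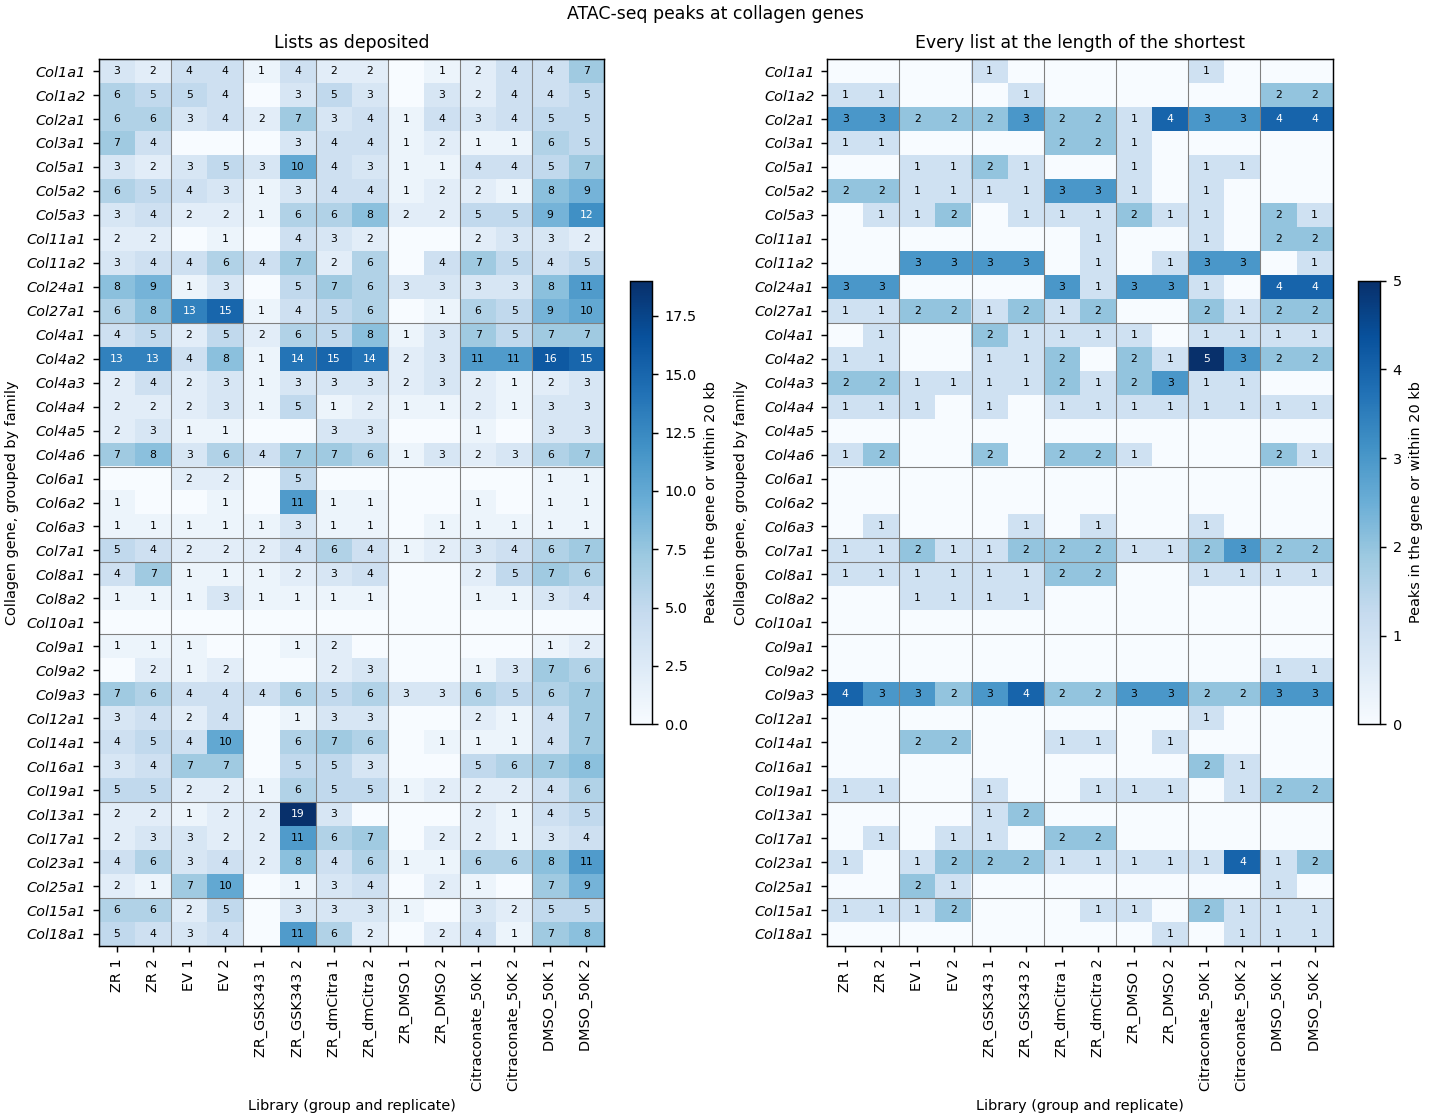
Number of ATAC-seq peaks in each of the 37 collagen genes or within 20 kb (rows, grouped by family) in each of the 14 libraries (columns), for the lists as deposited (left) and with each list cut to its 12390 best peaks (right); empty cells hold no peak. Col4a2 and Col27a1 hold many peaks, Col10a1 none, and in the right panel Col24a1 holds peaks in both ZR, ZR_dmCitra, ZR_DMSO and DMSO_50K columns, 1 in Citraconate_50K replicate 1 and none in EV or ZR_GSK343.

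At their ends, 27 of the 37 genes had a peak in at least 1 list. A start is named below for genes with a RefSeq promoter window, which gives the strand, and for the others the end of lower or higher coordinate. No list held an end peak for Col1a2, Col3a1, Col4a6, Col5a3, Col6a3, Col9a1, Col10a1, Col15a1, Col18a1 or Col25a1. End peaks were in 12 or more lists for 6 genes, Col1a1, Col4a1, Col4a2, Col5a1, Col5a2 and Col23a1, in 4 to 11 lists for 8 genes and in 1 to 3 lists for 13 genes. Col1a2 and Col3a1, the partner chains of type I and the chain of type III collagen of fibrous connective tissue, were thus without an end peak in all 14 lists, whereas the type I partner Col1a1 had one in 12.

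Col5a1 and Col5a2 encode type V chains, which start and size fibres of type I collagen. At the Col5a1 start the authors' fold enrichment over background was 8.52 and 12.9 in ZR and 14.5 and 18.5 in EV. It was 6.22 and 24.5 in ZR_GSK343, 5.19 and 6.90 in ZR_dmCitra and 5.80 and 4.58 in ZR_DMSO. In the second series it was 11.4 and 11.1 in Citraconate_50K and 9.48 and 9.25 in DMSO_50K. Col5a1 was the single member with a start peak in all 14 lists. Such folds are the authors' own values and describe a peak within its list. Col5a2 had a peak at its higher-coordinate end in 12 lists, at folds of 6.22 to 24.3, and in neither ZR_DMSO list.

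Col4a1 and Col4a2, the main chains of vascular basement membrane, lie head to head on chromosome 8, and their gene spans overlap by 85 bases. A peak at this shared start was in 13 lists, at folds of 4.58 to 19.8, and was absent from ZR_DMSO replicate 1. Col23a1, a transmembrane collagen, had a start peak in 12 lists at folds of 5.19 to 18.5, with none in ZR_DMSO. A peak at its 3′ end was in all 14 lists, but that window is shared with an end of Phykpl, so the peak cannot be assigned to one of these genes. The lower-coordinate end of Col1a1 had a peak in 12 lists at folds of 5.71 to 12.9, again with none in ZR_DMSO. These 6 genes had an open end in both libraries of ZR, EV, ZR_GSK343, ZR_dmCitra, Citraconate_50K and DMSO_50K alike.

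In the lists as deposited, which differ in length, other ends were open in some groups. Col7a1, the anchoring fibril chain of epithelial basement membrane, had a start peak in both libraries of ZR, ZR_dmCitra, Citraconate_50K and DMSO_50K and in neither EV library, 10 lists in all. Col11a1, a minor chain of cartilage fibres, had a start peak in 10 lists, at folds of 14.9 and 5.38 in ZR and at a fold of 5.29 in EV replicate 2 alone. Col4a5, a basement membrane chain on chromosome X, had one in 9 lists, with none in ZR_GSK343 or ZR_DMSO. Col13a1, a transmembrane chain, had one in 8 lists, at folds of 4.26 and 5.92 in ZR and none in EV. These ZR peaks ranked 44401 and 38125, below the 34989 peaks of the shorter EV list, so this end was not called gained. Col2a1, the main chain of cartilage fibres, had a lower-end peak in 7 lists, at folds of 14.9 and 12.4 in ZR and 26.2 and 30.5 in DMSO_50K. A Col27a1 start peak was in 7 lists and both libraries of Citraconate_50K and DMSO_50K. The RefSeq promoter window of Col27a1 lies inside the gene, beyond 1 kb from this start. That window had a peak in 9 lists, with both EV lists among them.

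A few ends were open in EV. The start of Col16a1 (folds of 6.95 and 10.1) and the lower end of Col12a1 (7.58 and 4.76), both fibril-associated chains, were in both EV lists and no other list. An end of Col17a1, the hemidesmosomal transmembrane chain, was likewise in both EV lists alone, at folds of 12 and 15.9, in a window shared with an end of Slk. The Col12a1 peak of EV replicate 2 ranked 42683, below the 34989 peaks kept per list in ZR against EV. The Col12a1 end was therefore not called lost. Col9a3, a fibril-associated chain of cartilage, had a lower-end peak in EV (11.4 and 8.99) and in DMSO_50K (6.13 and 6.47). The start of Col24a1, a fibrillar chain, was in both EV lists, ZR_GSK343 replicate 2 and Citraconate_50K replicate 1. Col8a2, a network chain of the corneal endothelium, had an end peak in the DMSO_50K lists alone, at 16.2 and 16.6. The remaining genes with an end peak, Col4a3, Col4a4, Col6a1, Col6a2, Col8a1, Col9a2, Col11a2, Col14a1 and Col19a1, had it in 1 to 3 lists.

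**Figure D2:**
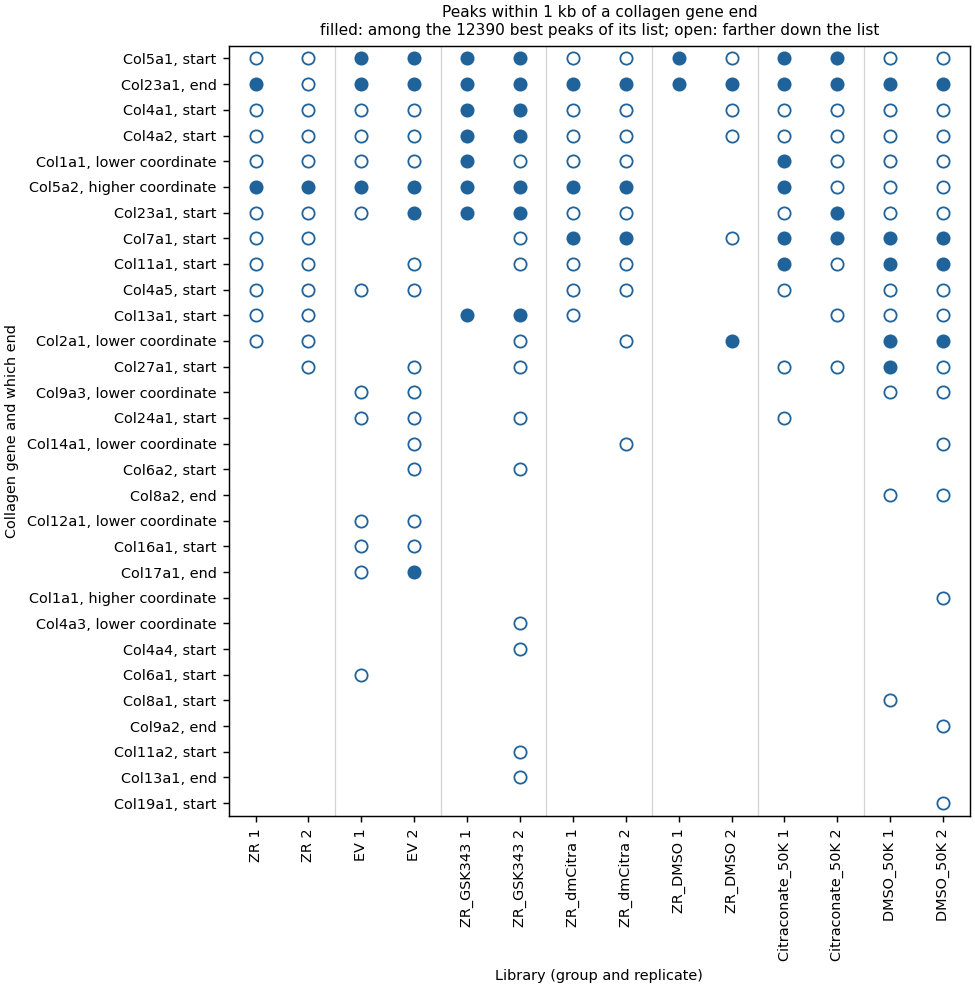
Peaks within 1 kb of an end of a collagen gene (rows, ordered by the number of lists that hold one) in each of the 14 libraries (columns); filled circles are among the 12390 best peaks of the list and open circles lie farther down. The upper rows are present in 12 to 14 lists, and the ZR_DMSO columns hold the fewest circles.

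RefSeq promoter windows (GRCm38.p6, 250 bases before to 50 after the start) were on hand for 30 of the 37 genes, 33 windows in all; Col1a1, Col2a1, Col4a3, Col5a2, Col9a3, Col12a1 and Col14a1 were not matched. The 8 windows with a peak in 7 or more lists had a median GC content of 65.0% and 21 CpG dinucleotides. The 6 windows with a peak in 1 to 6 lists had 63.8% and 15, and the 19 with no peak had 56.7% and 8. Over all 32851 windows of the table the medians were 52.7% and 7. As a description of these windows, members that were open in many lists were thus richer in GC and CpG than members without a peak. The promoters below show the range, from the start in most lists, through those that differed between ZR and EV, to one with no peak. Capitals mark matches, on either strand, to the GC box GGGCGG, the CCAAT box, the SOX core ACAAAG and the TATA box TATAAA.
Col5a1, chr2:27886175-27886474, plus strand, peak in 13 lists: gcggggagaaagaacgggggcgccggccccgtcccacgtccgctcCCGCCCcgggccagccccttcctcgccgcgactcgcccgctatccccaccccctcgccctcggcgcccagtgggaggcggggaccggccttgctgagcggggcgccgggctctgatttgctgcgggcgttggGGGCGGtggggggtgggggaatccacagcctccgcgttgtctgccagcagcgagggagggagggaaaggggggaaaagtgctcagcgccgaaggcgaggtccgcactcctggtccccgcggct
Col4a1, chr8:11312777-11313076, minus strand, peak in 12 lists: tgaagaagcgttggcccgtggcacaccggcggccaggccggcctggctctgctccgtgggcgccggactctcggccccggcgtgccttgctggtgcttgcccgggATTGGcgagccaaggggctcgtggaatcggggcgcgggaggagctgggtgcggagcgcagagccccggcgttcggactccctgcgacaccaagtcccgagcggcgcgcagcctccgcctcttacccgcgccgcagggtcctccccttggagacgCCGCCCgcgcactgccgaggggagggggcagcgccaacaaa
Col7a1, chr9:108953336-108953635, plus strand, peak in 9 lists: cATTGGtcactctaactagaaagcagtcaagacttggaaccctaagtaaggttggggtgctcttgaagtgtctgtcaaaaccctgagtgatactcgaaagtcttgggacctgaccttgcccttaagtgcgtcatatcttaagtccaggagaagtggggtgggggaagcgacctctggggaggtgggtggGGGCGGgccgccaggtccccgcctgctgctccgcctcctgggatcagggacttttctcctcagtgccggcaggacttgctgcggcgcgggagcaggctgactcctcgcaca
Col16a1, chr4:130047590-130047889, plus strand, peak in 2 lists: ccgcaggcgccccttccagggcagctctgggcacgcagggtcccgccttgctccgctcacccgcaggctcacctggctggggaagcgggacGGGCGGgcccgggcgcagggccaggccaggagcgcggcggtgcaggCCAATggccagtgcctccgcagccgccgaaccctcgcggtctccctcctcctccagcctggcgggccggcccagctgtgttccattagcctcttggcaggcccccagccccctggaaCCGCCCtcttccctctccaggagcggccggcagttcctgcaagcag
Col10a1, chr10:34389731-34390030, plus strand, no peak: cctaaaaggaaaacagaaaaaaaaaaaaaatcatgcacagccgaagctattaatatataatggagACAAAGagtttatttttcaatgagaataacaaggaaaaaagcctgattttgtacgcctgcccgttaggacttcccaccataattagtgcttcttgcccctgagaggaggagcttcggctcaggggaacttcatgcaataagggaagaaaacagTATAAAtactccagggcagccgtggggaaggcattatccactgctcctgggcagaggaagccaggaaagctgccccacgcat

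The Col5a1 and Col4a1 windows were 75.0% and 74.0% GC with 34 and 37 CpG, against 44.3% and 6 for Col10a1, which carried a TATA box and a SOX core and no GC box. Col16a1, open in EV alone, was 74.3% GC, so a high GC content did not go with an open start in each case. Of the 33 collagen windows, 60.6% held a GC box, against 35.7% of all windows. The CCAAT box was in 36.4% of collagen windows and 37.4% of all windows, and the TATA box in 15.2% and 13.6%. The SOX core was in 9.09% and 18.7%, the AP-1 motif TGANTCA in 3.03% and 7.81%, and the NF-kB consensus in 9.09% and 4.51%. A match is not a bound site, and these shares were not tested.

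The fusion line was first set against the empty vector, the comparison that asks what chromatin differs with ZFTA-RELA. At 34989 peaks per list, the collagen loci held as many peaks in ZR (97 and 103) as in EV (99 and 102), a difference of −0.5 ± 4.7 peaks (SD, n = 2 each). Where those peaks lay differed. Of 191 merged regions, 47 (24.6%) were in both ZR lists and neither EV list, called gained, and 44 (23.0%) were in both EV lists and neither ZR list, called lost. Over all regions of the genome the shares were 22.0% gained and 19.3% lost, so the collagen shares were near the background. Another 32 regions were in all 4 lists and 68 were mixed. Leaving out EV replicate 1 brought the lost count to 81. A call then asks for fewer lists and the common length can grow, so counts can rise through the rule itself. The same holds for the later counts with a library left out. A two-sided exact permutation test of 2 libraries against 2 cannot give a p under 0.33, so no peak number here can pass a threshold of 0.05.

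At gene ends ZR had 11 and 9 peaks, against 13 and 14 in EV, a difference of −3.5 ± 1.6 (SD, n = 2 each, exact permutation p = 0.33). The groups did not overlap. Of 20 end regions, 3 were gained (15.0%, against 5.04% of gene-end regions of all genes) and 4 were lost (20.0%, against 8.54%). Gained were regions touching the ends of Col2a1, Col7a1 and Col11a1, with ZR folds of 14.9 and 12.4, 14.9 and 14.5, and 14.9 and 15.1. The Col11a1 region, chr3:114031383-114032649, lay just downstream of its start. It reached the 1 kb window only through its ZR replicate 1 peak. Within the window, ZR replicate 2 had a peak below the cut, at a fold of 5.38, so the Col11a1 end itself was not gained. Lost were the ends of Col9a3, Col16a1, Col17a1 and Col24a1 described above. Counted by gene, 2 of 19 genes with an end peak gained it (Col2a1 and Col7a1) and 4 lost it, against 3.09% and 6.92% of all protein-coding genes with such a peak. These shares rest on counts of 2 to 4.

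Away from their own ends, the genes had 86 and 94 peaks in ZR, against 86 and 88 in EV (exact permutation p = 1). The difference was 3.0 ± 5.8 (SD, n = 2 each), and it was −1 without ZR replicate 2, 0 without EV replicate 1, 12.5 without chromosome 4 and 24 in the lists as deposited. Of 154 regions away from every gene end, 43 (27.9%) were gained and 38 (24.7%) lost, against 25.5% and 21.4% of such regions over all genes. Inside the genes, 36 of 124 regions were gained and 30 lost. By family, 20 of 65 regions at fibrillar genes were gained and 18 lost. The counts were 7 and 5 of 36 at the basement membrane chains, 8 and 9 of 38 at the fibril-associated chains, 3 and 7 of 20 at the transmembrane chains and 5 and 3 of 14 at the multiplexins Col15a1 and Col18a1.

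**Figure D3:**
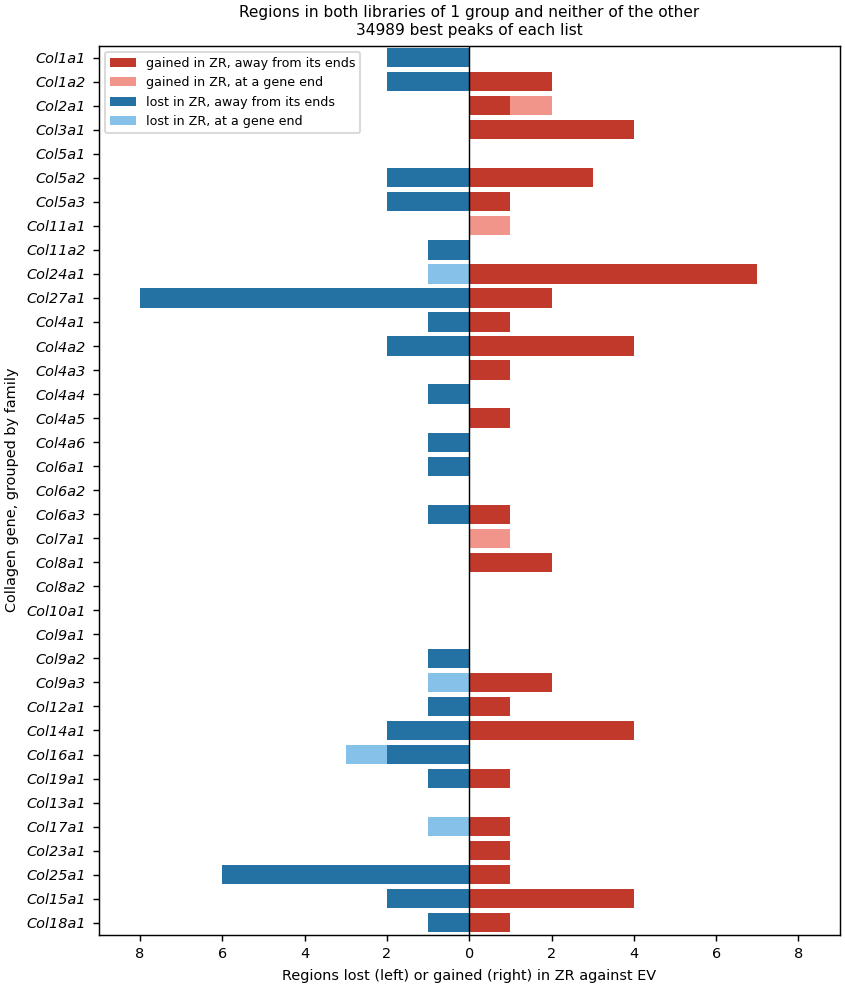
Regions gained (right, red) and lost (left, blue) in ZR against EV at each collagen gene, grouped by family, with regions at the gene's ends in the lighter shade; each list was cut to 34989 peaks, and a region counts where both libraries of a group and neither of the other have a peak. Col24a1 has 7 gained regions, and Col27a1 and Col25a1 have 8 and 6 lost regions.

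Single genes moved far to one side. Col24a1, a fibrillar chain of developing bone and cornea, had 7 and 8 peaks in ZR, against 1 and 1 in EV, with 7 regions gained inside the gene and 1 lost at its start. Col3a1 had 6 and 4 peaks in ZR and none in either EV list, with 4 regions gained, 2 of them in the stretch shared with Col5a2, and none lost. Col25a1, a transmembrane chain made by neurons, had 1 and 1 peaks in ZR, against 7 and 8 in EV, with 6 regions lost and 1 gained. Col27a1, a fibrillar chain of growth cartilage, had 4 and 5 in ZR, against 13 and 12 in EV, with 8 lost and 2 gained. In each of these 4 genes the ZR and EV counts did not overlap. Such separation was common. Of the 36 collagen genes with a peak in these lists, 10 (27.8%) had both ZR counts above both EV counts and 8 (22.2%) had both below, against 21.0% and 21.9% of the 17066 protein-coding genes that had a peak inside or within 20 kb. These shares are near the background, and no test was made per gene.

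Other genes were mixed. Col4a2 had 9 and 8 peaks in ZR, against 4 and 7 in EV, with 4 regions gained and 2 lost. Col14a1 had 4 and 4, against 4 and 3, again with 4 gained and 2 lost, so its number of peaks hid an exchange of regions. Col15a1 had 5 and 5, against 2 and 5, also with 4 gained and 2 lost. Col5a2 had 4 and 4, against 4 and 3, with 3 gained and 2 lost. Col16a1 had 2 and 4, against 7 and 5, with 3 lost and none gained. Col8a1, a network chain of vessel walls, had 3 and 5, against 1 and 1, with 2 gained. Col9a3 had 6 and 6, against 4 and 4, with 2 gained and 1 lost. Col2a1 had 5 and 5 peaks in ZR, against 3 and 3 in EV, with 2 gained and none lost. Col1a1 had 2 and 1 in ZR, against 4 and 3 in EV, with 2 lost, while Col1a2 had 4 and 5, against 5 and 4, with 2 gained and 2 lost. Among the genes of this paragraph the counts did not overlap in Col4a2, Col8a1, Col9a3 and Col2a1, higher in ZR, and in Col16a1 and Col1a1, lower in ZR. Of the other genes, 5 had neither a gained nor a lost region although they held a region in this comparison, namely Col5a1, Col6a2, Col8a2, Col9a1 and Col13a1. Col10a1 held no region, and the rest had 1 to 3 gained or lost regions each.

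Of the 6 best ranked gained regions, 5 were inside genes and 1 lay between genes. The first was chr3:145470844-145471740 in Col24a1, 179 kb from its start, at folds of 36.7 and 30.1 in ZR, and the next was chr3:145420471-145421048 in the same gene, 128 kb from its start, at 30.4 and 27.4. In Col4a3, a chain of the kidney glomerular membrane, chr1:82701574-82701922 had 19.2 and 24.2, and in Col8a1 chr16:57671544-57672321 had 24.5 and 18.8. Between Col3a1 and Col5a2, which are 24624 bases apart, chr1:45354951-45355560 had 25.6 and 17.2. A further Col24a1 region, chr3:145473994-145474948, had 16.5 and 20.4. No peak overlapped any of these 6 in the EV lists as deposited.

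The 6 lost regions of best rank were inside genes. They were chr9:20793808-20794659 in Col5a3, at folds of 25.3 and 38.1 in EV, and chr4:63290896-63291588 in Col27a1, at 15.8 and 17.5. In Col15a1, a multiplexin of basement membrane zones, chr4:47227276-47228103 had 21.5 and 16.9, and in Col25a1 chr3:130310507-130311204 had 13.9 and 20.6. The fibril-associated Col14a1 held chr15:55385487-55386020 at 13.3 and 20.6 and chr15:55510935-55511656 at 12.6 and 14.8. None had a peak in the ZR lists as deposited. The gene table gives no exons, so regions are placed only inside a gene, at its ends or in its flanks.

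Chromosome 4 carries 5 of the genes, Col8a2, Col9a2, Col15a1, Col16a1 and Col27a1, and its regions leaned to EV across the whole chromosome, with 9.80% gained and 30.4% lost of 2907. Of the 37 collagen regions there, 6 were gained and 14 lost. Of the 154 collagen regions on other chromosomes, 41 were gained (26.6%) and 30 lost (19.5%). Over all regions of the genome, chromosome 4 included, the shares were 22.0% and 19.3%. The lost regions of Col27a1 and Col16a1 thus lay on a chromosome with many lost regions, and whether this bears on them was not tested. Col24a1 and Col25a1 lie on chromosome 3.

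The 91 regions that differed between ZR and EV were then followed in the other lists, which had no part in their choice. Of the 47 gained regions, the deposited ZR_dmCitra lists held 41 and 36, and the ZR_DMSO lists 9 and 12. The ZR_GSK343 lists held 3 and 30, Citraconate_50K 23 and 20, and DMSO_50K 41 and 43. Of the 44 lost regions, ZR_dmCitra held 4 and 4, ZR_DMSO 0 and 0, ZR_GSK343 0 and 6, Citraconate_50K 8 and 7 and DMSO_50K 11 and 14. The DMSO_50K lists, labelled as empty vector, thus held 89.4% ± 3.0 of the regions gained in the fusion line and 28.4% ± 4.8 of those lost in it (SD, n = 2 each). The Citraconate_50K lists, labelled as fusion cells and shorter, held 45.7% ± 4.5 and 17.0% ± 1.6. Over the 13295 gained and 11677 lost regions of the genome, DMSO_50K held 83.0% ± 3.8 and 24.5% ± 3.4. The DMSO_50K lists thus held most of the regions found in ZR and few of those found in EV, which goes against their label. Whether the label or another difference between the series lies behind this was not tested, and each statement on Citraconate_50K against DMSO_50K rests on these libraries.

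With each list cut to 12390 peaks, the gained collagen regions were held at 26.6% ± 1.5 in ZR_dmCitra, 4.26% ± 3.0 in ZR_GSK343 and 16.0% ± 4.5 in ZR_DMSO. They were held at 14.9% ± 6.0 in Citraconate_50K and 28.7% ± 1.5 in DMSO_50K (SD, n = 2 each, exact permutation p = 0.33 for each comparison with its vehicle). The groups did not overlap in any of the 3 comparisons. Over all gained regions of the genome, the same shares were 26.5%, 5.36%, 18.8%, 13.5% and 25.2%, so the collagen regions followed the genome. At this length the ZR lists, which had a part in choosing the gained regions, themselves held only 14.9% and 23.4% of the collagen ones. Over the genome the ZR lists held 26.2% and 25.7%. Of the 44 lost regions, 27 (61.4%) were in none of the 10 deposited lists of the other 5 groups, against 62.3% of the lost regions of the genome, so this too was the background. They included 7 of the 8 in Col27a1 and 5 of the 6 in Col25a1. Of the 47 gained regions, 1 (2.13%) was in none of those lists, against 1.05% in the genome.

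**Figure D4:**
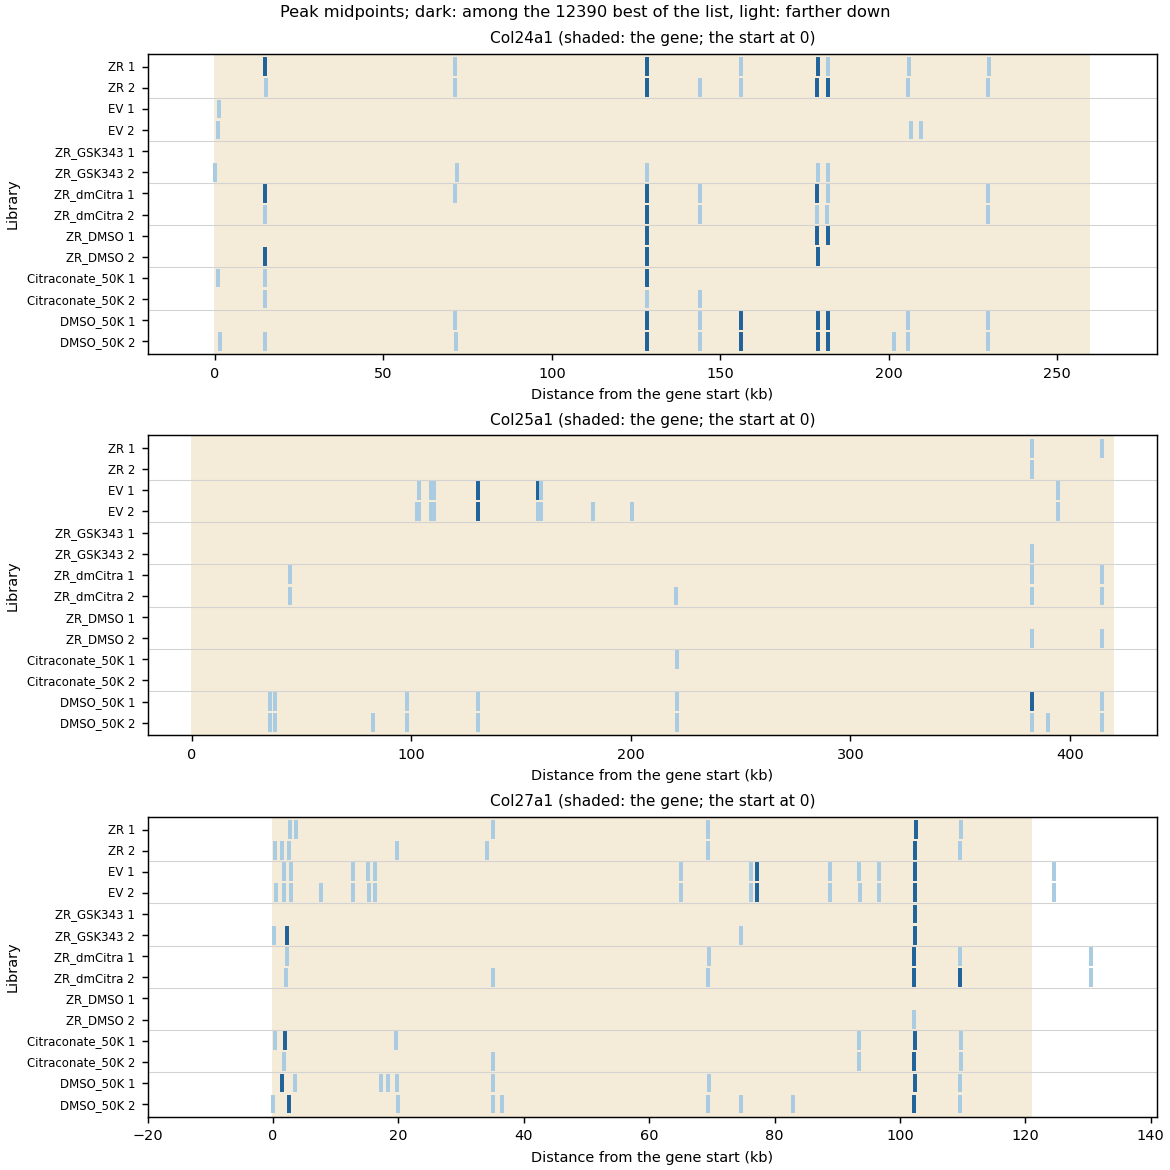
Midpoints of all deposited peaks along Col24a1, Col25a1 and Col27a1 and 20 kb either side, by distance from the gene start in kb (horizontal) in each library (rows); dark marks are among the 12390 best peaks of the list, light marks lie farther down, and the shaded span is the gene. In Col24a1 marks at about 128 and 179 kb recur in ZR, ZR_dmCitra, ZR_DMSO and DMSO_50K and are missing in EV, and Citraconate_50K has the first of them alone, while most EV marks of Col25a1 and Col27a1 recur in no other group.

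Col24a1 shows this pattern region by region. Of its 7 regions gained in ZR, 5 were in both DMSO_50K lists and neither Citraconate_50K list, and 1 was in all 4. Over all collagen regions gained in ZR, 18 of 47 (38.3%) were in both DMSO_50K and neither Citraconate_50K list and 0 the other way, against 29.9% of gained regions in the genome. The region 128 kb from the start was in 11 lists, that is, all but EV replicates 1 and 2 and ZR_GSK343 replicate 1. The region 179 kb from the start was in 9 lists, those of ZR, ZR_dmCitra, ZR_DMSO and DMSO_50K and ZR_GSK343 replicate 2.

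EZH2 inhibition was compared with the vehicle at 12390 peaks per list. Collagen gene ends were open more often with GSK343, at 8 and 6 peaks in ZR_GSK343 against 2 and 2 in ZR_DMSO, a difference of 5.0 ± 1.4 (SD, n = 2 each, exact permutation p = 0.33). Inside the genes there were fewer, at 7 and 7 in ZR_GSK343 against 12 and 12 in ZR_DMSO, and away from collagen ends as a whole there were 19 and 21 against 20 and 20. The end and inside counts did not overlap between the groups.

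Of 53 collagen regions, 10 were gained with GSK343 (18.9%, against 10.6% of all regions) and 4 were lost (7.55%, against 7.76%). At the collagen ends 4 of 8 were gained, against 20.5% of gene-end regions of all genes, and 0 were lost, against 0.691%. At ends of neighbouring genes 5 of 11 were gained, and away from every gene end 1 of 34 was gained and 4 were lost, against 5.38% and 12.4%. Gene ends of all genes thus also had more gained than lost regions, and regions away from ends more lost than gained. Without ZR_GSK343 replicate 2 the gained count was 16. The lost count was 21 without ZR_DMSO replicate 1 and 11 without ZR_DMSO replicate 2.

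The ends gained with GSK343 were those of Col5a2, Col13a1, Col23a1 and the shared start of Col4a1 and Col4a2. At Col5a2, chr1:45502314-45503309 had folds of 6.22 and 15.7 in ZR_GSK343. At Col13a1, chr10:61977737-61978589 had 5.83 and 12.6, and at the Col23a1 start chr11:51289577-51290790 had 5.83 and 11.9. The Col4a1 and Col4a2 start had 7.77 and 19.8, and lay farther down the list in ZR_DMSO replicate 2 at 4.58. Counted by gene, 4 of 8 genes with an end peak gained it, against 20.7% of all genes, and 0 lost it, against 0.405%. Col23a1 is not among them, since its 3′ end had a peak in all 4 lists. Col4a1 and Col4a2 are both among them, and both rest on the same peak at their shared start. In the longer lists as deposited, the Col5a2, Col23a1, Col4a1 and Col4a2 ends were open in both libraries of ZR and EV as well. At the 12390 peaks used with GSK343, the Col5a2 end stayed open in both libraries of ZR and EV. The Col23a1 start ranked 24570 and 21415 in ZR, and the Col4a1 and Col4a2 start 20434 and 17062, all below that cut. In EV these starts ranked 12940 and 8949, and 34029 and 19193. At 12390 peaks ZR had 2 and 1 collagen end peaks, against 2 and 2 in ZR_DMSO.

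The 5 gained regions at neighbouring ends lay near Col11a2, Col8a1 and Col8a2. Near Col11a2, a minor chain of cartilage fibres, chr17:34024347-34025197 at ends of H2-Ke6 and Ring1 had folds of 6.61 and 14.7. Near Col8a1, chr16:57606468-57607161 at an end of Cmss1 had 6.22 and 17.4, and near Col8a2, chr4:126321206-126321911 at ends of Adprhl2 and Tekt2 had 8.55 and 12.6. Inside Col27a1 a region 102 kb from the start was gained at 7.0 and 13.6. It was in 13 of the 14 deposited lists.

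The 4 regions lost with GSK343 were inside Col24a1 at 128 kb and 179 kb from its start, Col4a3 and Col4a2. In ZR_DMSO their folds were 10.0 and 12.7, 5.80 and 13.2, 5.80 and 7.63, and 5.80 and 7.12. The first 3 are also among the regions gained in ZR against EV. Col24a1 had no peak in either ZR_GSK343 list at this length, against 3 and 3 in ZR_DMSO. Each of the 4 regions had a peak in the deposited list of ZR_GSK343 replicate 2, whose 57634 peaks reach far below the cut. In that replicate these peaks thus ranked lower and were not absent. The first 3, as bounded in ZR against EV, had no peak in the deposited list of ZR_GSK343 replicate 1. The replicate 2 list also held 19 peaks at Col13a1 and 11 each at Col6a2, Col17a1 and Col18a1, more than any other list at those genes.

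Citraconate was compared with the same ZR_DMSO lists, so its comparison and that of GSK343 are not independent. ZR_dmCitra had 3 and 3 peaks at collagen ends against 2 and 2 in ZR_DMSO, and 25 and 26 away from them against 20 and 20 (exact permutation p = 0.33 for each). The groups did not overlap. In the lists as deposited, in which ZR_DMSO was far shorter, the differences were 8.5 at ends and 96.5 away, and 69 regions were gained and 0 lost. Of 50 regions, 11 were gained (22.0%, against 12% of all regions) and 1 was lost (2.00%, against 7.47%). Without ZR_DMSO replicate 1 the counts were 24 gained and 18 lost and the end difference was −0.5, and without ZR_dmCitra replicate 1 they were 17 and 4. The lost count was 2 without ZR_dmCitra replicate 2 and 7 without ZR_DMSO replicate 2.

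At the ends, 2 of 5 regions were gained, against 11.3% of gene-end regions of all genes, and 0 were lost, against 1.77%. They were the Col5a2 end, at folds of 22.8 and 20.2, and the Col7a1 start, at 23.4 and 24.9 in ZR_dmCitra. By gene this was 2 of 5, against 12.3% gained and 1.56% lost over all genes. Away from every gene end, 8 of 38 were gained and 1 lost, against 13.7% and 8.67%. The gained regions lay in Col3a1 and Col5a2 (the stretch between them), Col4a6 (2 regions), Col8a1, Col14a1, Col17a1 (2 regions) and Col27a1, and at the Cmss1 end near Col8a1. In Col17a1, chr19:47658678-47659597 had 23.4 and 22.3. In Col14a1, chr15:55379784-55380485 had 18.7 and 20.2. All 11 gained regions had a peak in both deposited ZR lists. The lost region was in Col19a1, a fibril-associated chain, at 6.33 and 9.66 in ZR_DMSO, and it had a peak in both deposited ZR_dmCitra lists.

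In the second series, 29432 peaks were kept per list. Citraconate_50K had 12 and 13 peaks at collagen ends, against 10 and 8 in DMSO_50K, and 86 and 86 away from them, against 80 and 81 (exact permutation p = 0.33 for each). In the lists as deposited, in which DMSO_50K was longer, both differences turned, to −6.5 and −92, and with gene-end windows of 500 bp the end difference was 0.5. Without Citraconate_50K replicate 2 the difference away from ends was −2. Of 158 regions, 20 were gained (12.7%, against 9.09% of all regions) and 24 were lost (15.2%, against 16.8%). In the lists as deposited, 3 were gained and 68 lost. The gained count was 39 without Citraconate_50K replicate 1 and 34 without Citraconate_50K replicate 2.

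At collagen ends 5 of 15 regions were gained, against 8.77% of gene-end regions of all genes, and 2 were lost, against 2.00%. The gained ones were 2 at the start of Col5a1, 1 at each end of Col23a1 and 1 at the Col13a1 start. Both deposited DMSO_50K lists held lower-ranked peaks within 1 kb of the Col23a1 start (7.25 and 9.71) and the Col13a1 start (6.13 and 9.25). Within 1 kb of the Col13a1 start, Citraconate_50K had a peak in replicate 2 alone, at 7.22. At the Col23a1 3′ end, another region was shared by all lists of this comparison. The Col5a1 region chr2:27885866-27886571 had folds of 11.4 and 11.1 in Citraconate_50K, and a peak of lower rank was in both deposited DMSO_50K lists. The lost ones were the Col2a1 end chr15:97975168-97976064, at 26.2 and 30.5 in DMSO_50K, and the Col8a2 end chr4:126314302-126314775, at 16.2 and 16.6. By gene, 1 of 13 genes with an end peak gained it (Col5a1) and 2 lost it, against 7.39% and 1.51% over all genes.

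Away from every gene end, 12 of 127 regions were gained and 22 lost, against 9.30% and 18.5%. Col5a1 had 4 and 4 peaks in Citraconate_50K and 0 and 0 in DMSO_50K at this length, with 4 regions gained. Col4a2 had 11 and 11 against 6 and 8, with 3 gained and 1 lost. Col24a1 had 2 and 3 against 6 and 7, with 5 regions lost and none gained, the largest number lost at one gene in this comparison. Its best ranked lost region, chr3:145470858-145471829, had 37.4 and 43.5 in DMSO_50K and no peak in the deposited Citraconate_50K lists. Col25a1 had 1 and 0 against 3 and 5, with 2 lost, and Col23a1 had 6 and 6 against 5 and 5, with 2 gained and 3 lost. Further lost regions included chr1:24392765-24393491 in Col19a1 at 25.1 and 31.4 and chr3:114184984-114185975 in Col11a1 at 22.9 and 32.8. Gained regions with no deposited DMSO_50K peak were chr1:24298677-24299065 in Col19a1 at 7.80 and 11.1, chr4:63307261-63307641 in Col27a1 at 6.24 and 8.88, and chr17:34034092-34034430 near Col11a2 at 6.76 and 5.00.

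**Figure D5:**
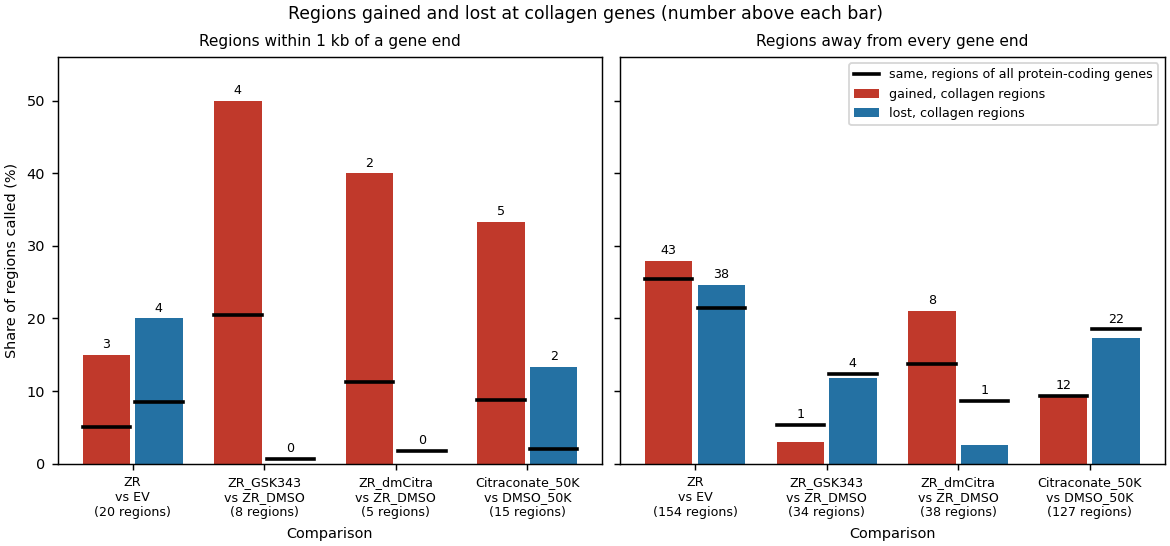
Share of collagen regions gained (red) and lost (blue) in the 4 comparisons, in percent, at gene ends (left) and away from every gene end (right), with the number of gained or lost regions above each bar and the share over regions of all protein-coding genes as a black line. The end panels rest on 5 to 20 regions, and away from gene ends the bars lie near the lines in ZR against EV and in Citraconate_50K against DMSO_50K.

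Side by side at 12390 peaks, the collagen loci held 25.5 ± 2.1 peaks in ZR and 25.0 ± 0 in EV. They held 27.0 ± 0 in ZR_GSK343, 28.5 ± 0.7 in ZR_dmCitra and 22.0 ± 0 in ZR_DMSO, and 31.0 ± 4.2 in Citraconate_50K and 34.5 ± 0.7 in DMSO_50K (SD, n = 2 each). At gene ends the means were 1.5, 4.0, 7.0, 3.0, 2.0, 5.0 and 4.5 in that order of groups. ZR_GSK343 had the highest mean at gene ends and DMSO_50K the highest over the loci, and neighbours in either order often differ by less than their spread.

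The enzymes, receptors and proteases that make, bind and break down collagen were read the same way, as 52 genes in 6 roles. In ZR against EV, 33 had a gene-end peak, of which 1 was gained and 4 were lost, against 3.09% and 6.92% of all genes. Gained was Itga10, a collagen-binding integrin chain. Lost were the procollagen proteases Tll1 and Tll2, the integrin chain Itga11 and the collagen uptake receptor Mrc2. In all, 25 were in all 4 lists, including 11 of the 12 chain-modifying enzymes with a peak, and the chaperone Serpinh1 was among them.

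With GSK343, 7 of 25 partner genes gained an end peak, against 20.7% of all genes, and 0 lost one. All 4 genes of propeptide removal with a peak gained it, namely the proteases Adamts2, Adamts14 and Bmp1 and the enhancer protein Pcolce2. So did the crosslinking enzyme Loxl3, the glycosyltransferase Colgalt1 and the prolyl hydroxylase P3h2. These gains are counted against the ZR_DMSO lists. Of the 8 propeptide-removal genes, 5 had an end peak in all 4 ZR and EV lists, at 34989 peaks per list. That is a longer cut than the 12390 peaks used with GSK343. At the longer cut, most of the 4 genes were thus open without GSK343 as well. Whether they were open in ZR at 12390 peaks was not tested. With citraconate against ZR_DMSO, 3 of 16 gained one, namely Plod1, a lysyl hydroxylase, Loxl3 and Colgalt1, against 12.3% of all genes. In the second series 1 of 30 gained one, the metalloprotease inhibitor Timp3, and 0 lost one, against 7.39% and 1.51%.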

How the data were processed

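ATAC-seq peak lists of 14 libraries were used, with coordinates on mm10. Per the submitters' processing notes, reads were aligned with BWA and handled with SAMtools and Picard, and peak names in the deposited files show MACS2; its settings are unknown. Each deposited peak carries the authors' score, their fold enrichment and their −log10 p and −log10 q values. The labels state 50000 cells per library.

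Peaks on chromosomes 1 to 19, X and Y were ranked by −log10 q, the 4 lists of a comparison cut to the shortest, and overlapping peaks (at least 1 bp) merged. Gained and lost regions had a peak in both libraries of one group and neither of the other. Peak numbers were compared by a two-sided exact permutation test, whose smallest p is 0.33. Genes came from the RefSeq table (GRCm38.p6). Named regions were the 6 best ranked per comparison and direction, by the poorer of the 2 ranks, with those without a peak in the other group's deposited lists first; other genes and regions were chosen after their values were seen. The members and gene lists were chosen with earlier results of these data known. Python 3.11.15, pandas 2.3.3 and SciPy 1.17.1 were used. The region calling was run on simulated lists whose peaks had identical bounds. That checks the code and cannot show how the calls perform on real lists.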

Additional observations from a re-analysis of the deposited data

Results flagged for a closer look

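Citraconate against its vehicle went in opposite directions in the first series (ZR_dmCitra against ZR_DMSO) and the second (Citraconate_50K against DMSO_50K) for some collagen regions sorted by the comparison of ZR with EV, with each library of one group on the same side. These differences between the series were not tested. In the second series the labels give the citraconate and vehicle libraries different cell lines, so treatment and cell line cannot be told apart there. For gained regions in lists of equal length, the change was 10.6 points in the first series and −13.8 in the second, a difference between the series of −24.5 percentage points. Over all gained regions of the genome the changes were 7.69 and −11.7 points, so the pattern was not confined to collagen loci. In the lists as deposited, whose lengths differ between the groups, the difference was −103 points for gained regions, −20.5 for lost regions and −62.5 for regions in all 4 ZR and EV lists. At equal length the opposite direction was not seen for the other kinds, with changes of 10.9 points in both series for regions in all 4 lists and of 0 and −1.14 for lost regions.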

How the results depend on the processing

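Of the recomputed values, 124 kept their direction (counts within 1.5 times the reported one), 34 moved and 6 reversed. The cause was not tested. The 124 include the replicate-block values, which could not differ from the reported ones. A kept direction need not keep the size, as the differences given in the report show. With the lists as deposited, 0 regions were lost with GSK343 and the difference away from ends was 69.5 peaks; with citraconate 69 were gained and 0 lost; in the second series 3 were gained, 68 lost, and the differences were −6.5 at ends and −92 away. At a −log10 q of at least 5, GSK343 gained 6 regions, its difference away was −2.5, and citraconate lost 3. Within 10 kb the differences away were −3 (GSK343) and −1.5 (second series). Gene-end windows of 500 bp and 2 kb gave 1.5 and −1.5 for GSK343. With peaks covering 50% of a region, citraconate gained 19 and the second series lost 40. With ZR in place of ZR_DMSO, GSK343 lost 19 and had −8.5 peaks away, and citraconate lost 12 with an end difference of 0. When a library is left out, a call asks for fewer lists, so gained and lost counts can rise through the rule itself. Leaving out each library in turn gave, for ZR against EV, 52 to 62 gained, 45 to 81 lost, end differences of −4.5 to −2.5 and away differences of −1 to 7. For GSK343 it gave 12 to 16, 4 to 21, 4 to 6 and −1 to 1. For ZR_dmCitra it gave 12 to 24, 2 to 18, −0.5 to 1 and 5 to 6. For the second series it gave 25 to 39, 32 to 36, 2.5 to 4.5 and −2 to 6. The replicate numbers did not pair the libraries (correlations of 0.0053, 0.034, −0.0014 and 0.0012). Pairing by replicate number does not enter the gained and lost counts or the mean differences. The counts with the replicate block, 47 and 44, 10 and 4, 11 and 1, and 20 and 24, were therefore fixed in advance. Without chromosome 4, ZR against EV had 41 gained and 30 lost. Depth per library is unknown, so an absent peak does not show closed chromatin.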
